A study of Mus musculus with 12 samples.

Results

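The step from the second hemogenic endothelial population (HE2) to the hematopoietic progenitor population (HP) was followed in cells that received no doxycycline. The 2 NoDox HP libraries were compared with the 2 NoDox HE2 libraries over all genes, and these 4 libraries, taken by their labels, are 4 of the 12 in the series. All 12 came from A2lox.cre mouse embryonic stem cells with a doxycycline-inducible RUNX1-EVI1 construct, which encodes a leukaemic fusion of 2 transcription factors, so the NoDox cells carry the construct uninduced. Embryoid bodies were grown for 3.25 days and FLK1+ cells (FLK1 is the VEGF receptor encoded by Kdr) were isolated from them. These were kept for 1 day and then 18 hours in medium with VEGF and IL-6 before the populations were sorted and their total RNA sequenced. The PlusDox libraries differ in having had 0.5 µg/ml doxycycline in those 18 hours. Stem cells were expanded from single colonies, and neither the number of colonies nor the gates of the sort could be read from the labels. The replicates are named biological and not described further, so p-values measure the spread between these samples, part of which may be technical.

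Hemogenic endothelium is the vascular lining from which the first blood cells of the embryo bud. Its cells are joined by VE-cadherin and other junction proteins, respond to VEGF, Notch and BMP signals and rest on a basement membrane. In the endothelial-to-haematopoietic transition RUNX1 and its targets, among them the repressors GFI1 and GFI1B, shut this programme while PU.1, GATA1 and other blood regulators take over. The first progenitors formed from embryonic stem cells resemble those of the yolk sac and make embryonic red cells, megakaryocytes and myeloid cells.

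Levels are in FPKM, fragments scaled by transcript length and library, and folds are log2 differences of log2(FPKM + 1) between the group means, which understate the change of genes near 0. Genes with an adjusted p below 0.05 were called, in limma fitted to all 12 libraries over the 13316 genes with at least 1 FPKM in at least 2 of them. The summed FPKM was 575390 and 498193 in the HE2 libraries and 556294 and 535402 in the HP libraries, with 11461 to 12077 genes at 1 FPKM or more. Read counts were not analysed here, and the steps of low values put the depth at 1.16 and 0.966 times the median library in HE2 and at 0.908 and 0.712 times in HP. HP replicate 2 stands apart by Lars2, listed at 16980 FPKM against 24.0 to 224 in the other 3 libraries. Together with Mir6236 and LOC101056014 it made up 12.8% of that library's sum and 0.481 to 0.591% of the others. Across genes, log2 values correlated at 0.977 between the HE2 replicates and at 0.983 between the HP replicates, and at 0.918 to 0.943 between the populations.

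The label check used genes that define each population. Cdh5, Pecam1, Kdr, Tie1 and Esam, the endothelial markers, lay at 50.7 to 253 FPKM in HE2. In HP they lay at 4.54 to 67.6 FPKM, so the HP libraries were not free of endothelial transcripts. The progenitor markers Ptprc, Spi1, Gfi1b, Vav1, Coro1a and Laptm5 were higher in both HP libraries than in both HE2 libraries. They were not absent from HE2, where Spi1 lay at 25.3 and 23.5 FPKM and Laptm5 at 51 and 47.7 FPKM. In bulk RNA, fewer cells of a type and less RNA per cell cannot be told apart, which holds for every gene group below. Of the surface genes often used in such sorts, Tek, which encodes the receptor TIE2, had 59.4 and 84.2 FPKM in HE2 and 8.51 and 6.63 FPKM in HP. Kit had 66.3 and 74.2 FPKM in HE2 and 48.2 and 38.5 FPKM in HP, and Itga2b, which encodes CD41, had 166 and 94.9 FPKM in HE2 and 192 and 157 FPKM in HP. If the sort used them, these levels are no finding. Tek passed the test (log2 fold change -3.07 ± 0.25 (SE), adjusted p = 1.03e-05), while Kit and Itga2b had log2 fold changes of -0.69 and 0.47 and did not pass (adjusted p = 0.128 and 0.564). Kit passed as lower in 4 of 22 alternatives, with quantile normalization (0.049), a replicate block (0.037), the 4 libraries alone (0.040) and the 6 NoDox libraries alone (0.030).

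Vascular genes fell and blood genes rose in HP. Of the 13316 genes tested, 2125 (16.0%) were called: 707 (5.31% of those tested) were higher in HP and 1418 (10.6%) were lower. The falls were also the deeper changes, with 245 called genes lower by at least 2 on the log2 scale and 73 higher by as much, and 78 and 11 past 3. Both HP libraries lay on the same side of both HE2 libraries for 7348 genes, 55.2% of those tested. The median over all tested genes was -0.06. Scaling each library to the same median moved it to 0.07 and the calls to 1408 higher and 1470 lower, so the balance of rises and falls depended on the scale, and a change below about this shift in median has no fixed sign. Leaving out HP replicate 2 left 401 higher and 783 lower, and leaving out HP replicate 1 left 425 and 1099. Leaving out HE2 replicate 1 left 445 and 1275, and leaving out HE2 replicate 2 left 494 and 810.

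The rises were led by Pf4, the platelet granule chemokine, at chr5:90772435-90773383 in the mm10 build. It had 0.664 and 0.657 FPKM in HE2 and 18.1 and 37 FPKM in HP (log2 fold change 4.02 ± 0.33 (SE), adjusted p = 1.15e-05). Next came Tubb1, the beta tubulin of platelets, at chr2:174450595-174458380, with 4.54 and 4.8 FPKM in HE2 and 75.9 and 106 FPKM in HP (log2 fold change 4.0 ± 0.22 (SE), adjusted p = 9.43e-07). Both HE2 libraries lay below both HP libraries for each of them, as the rule for the largest changes required. Such separation held for all 707 genes called higher. Among the 20 largest rises were 6 globin genes, Gp5, Gp1bb and Tuba4a with them on the platelet side, and the red cell genes Klf1, Tmod1 and Ache. The leukocyte genes Il10ra, Cd52 and Ccl9 were also among them. The falls were led by Ramp2, the adrenomedullin receptor partner of endothelial cells, at chr11:101246334-101248250. It had 175 and 249 FPKM in HE2 and 5 and 4.28 FPKM in HP (log2 fold change -5.22 ± 0.22 (SE), adjusted p = 3.00e-07). Sox18, an endothelial transcription factor at chr2:181669837-181671640, followed with 84.1 and 106 FPKM in HE2 and 3.14 and 2.61 FPKM in HP (log2 fold change -4.63 ± 0.21 (SE), adjusted p = 3.00e-07). Cdh5, which encodes VE-cadherin, at chr8:104101613-104144504, had 160.3 and 253 FPKM in HE2 and 10.8 and 9.88 FPKM in HP (log2 fold change -4.16 ± 0.26 (SE), adjusted p = 2.42e-06). The HE2 and HP libraries of these 3 genes were far apart.

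**Figure D1:**
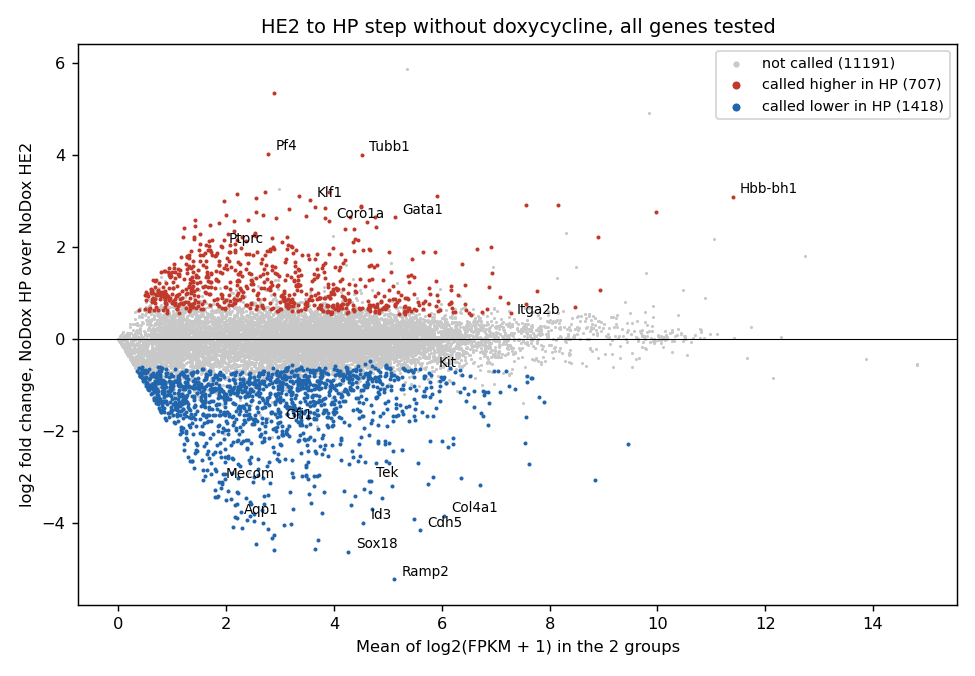
Each point is 1 of the 13316 genes tested, with the mean of log2(FPKM + 1) in the 2 groups on the horizontal axis and the log2 fold change of NoDox HP over NoDox HE2 on the vertical axis. The 707 genes called higher are red, the 1418 called lower are blue and the 11191 others grey. Ramp2, Sox18 and Cdh5 lie lowest among the labelled genes and Pf4 and Tubb1 highest, while Kit and Itga2b lie among the grey points. The unlabelled red point above Pf4 is Mir8114, a small RNA gene that the naming rule left out.

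Promoters of some blood genes called higher and some endothelial genes called lower are shown to set their letters side by side. Each runs from 250 bases before to 50 bases after the RefSeq start, on GRCm38.p6 (mm10), and is written in the gene's own direction. Pf4 (chr5:90772185-90772484, + strand) and Gp5 (chr16:30310732-30311031, - strand) are platelet genes. Hbb-bs (chr7:103827879-103828178, - strand) is a beta globin gene and Alas2 (chrX:150547167-150547466, + strand) encodes the first enzyme of haem synthesis in red cells. Cldn5 (chr16:18776597-18776896, + strand) and Rasip1 (chr7:45627287-45627586, + strand) are endothelial genes, for a tight junction protein and a vessel-forming adaptor. Capitals mark AGATAA or its complement TTATCT, the core letters of GATA factors, and CGGAAG or CTTCCG, those of ETS factors. The letters TGTGGT or ACCACA of RUNX factors were searched on both strands too and do not occur in these 6, and none of the marked matches overlaps another.
Pf4: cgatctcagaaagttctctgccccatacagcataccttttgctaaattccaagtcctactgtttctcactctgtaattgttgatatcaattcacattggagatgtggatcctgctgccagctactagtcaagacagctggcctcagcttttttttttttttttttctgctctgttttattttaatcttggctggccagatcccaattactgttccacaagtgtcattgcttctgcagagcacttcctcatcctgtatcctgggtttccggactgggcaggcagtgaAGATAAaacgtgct
Gp5: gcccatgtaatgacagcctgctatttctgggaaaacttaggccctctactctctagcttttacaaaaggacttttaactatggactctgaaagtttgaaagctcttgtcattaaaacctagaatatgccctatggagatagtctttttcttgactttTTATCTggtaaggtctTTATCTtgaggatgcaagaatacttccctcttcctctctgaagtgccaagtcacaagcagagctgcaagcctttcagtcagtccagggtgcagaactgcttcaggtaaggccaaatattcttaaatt
Hbb-bs: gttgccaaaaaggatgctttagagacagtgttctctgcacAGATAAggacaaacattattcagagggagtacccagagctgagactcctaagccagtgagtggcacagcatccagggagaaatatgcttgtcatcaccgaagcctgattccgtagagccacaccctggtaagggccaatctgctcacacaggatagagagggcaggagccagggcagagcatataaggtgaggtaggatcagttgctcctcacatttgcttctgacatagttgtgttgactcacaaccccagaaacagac
Alas2: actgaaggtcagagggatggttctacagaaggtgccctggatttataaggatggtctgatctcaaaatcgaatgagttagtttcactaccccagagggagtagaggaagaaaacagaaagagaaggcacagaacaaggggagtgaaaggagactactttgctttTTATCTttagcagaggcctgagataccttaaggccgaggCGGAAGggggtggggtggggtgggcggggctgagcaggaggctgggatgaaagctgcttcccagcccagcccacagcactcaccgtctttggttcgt
Cldn5: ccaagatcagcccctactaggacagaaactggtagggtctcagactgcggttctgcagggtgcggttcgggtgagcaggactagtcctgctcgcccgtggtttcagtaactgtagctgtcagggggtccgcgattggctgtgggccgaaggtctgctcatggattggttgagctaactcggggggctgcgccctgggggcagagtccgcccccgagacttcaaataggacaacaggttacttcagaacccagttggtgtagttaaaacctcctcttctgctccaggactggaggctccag
Rasip1: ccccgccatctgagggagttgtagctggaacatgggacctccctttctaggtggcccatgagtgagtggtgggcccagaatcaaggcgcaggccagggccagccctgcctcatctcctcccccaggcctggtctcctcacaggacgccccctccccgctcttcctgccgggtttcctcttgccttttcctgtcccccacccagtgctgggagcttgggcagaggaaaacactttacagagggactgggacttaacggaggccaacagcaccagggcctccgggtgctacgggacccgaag

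The 4 blood genes were chosen to hold the GATA letters. The 2 endothelial genes were chosen by the size of their fall among those with a promoter entry, without regard to letters. The 6 are therefore examples and not a comparison. Over the promoters with an entry, the GATA letters stood in 69 of 521 genes called higher (13.2%), in 73 of 1022 called lower (7.14%) and in 6.38% of the 9683 tested. Of the 33 called members of the globin, haem, red cell and platelet lists with an entry, 12 held them, and of the 14 called endothelial genes with an entry, 0 did. All 27025 promoters of the table held them in 11.4%. The RUNX letters stood in 16.1% of the genes called higher, 12.0% of those called lower, 12.4% of those tested and 16.9% of all promoters. The ETS letters stood in 21.9%, 15.9%, 32.4% and 17.2% of the same sets. Mean GC content was 58.7% in the promoters of genes called higher, 62.6% in those of genes called lower and 60.9% in those tested. These are shares of letters and carry no test.

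Endothelial genes fell almost as a whole. Of the 31 tested, 30 were called lower and the median log2 fold change was -3.42. The summed level of the list was 1882 and 2941 FPKM in HE2 and 396 and 385 FPKM in HP. Among the receptors, Kdr had 116 and 203 FPKM in HE2 and 30.2 and 28.6 FPKM in HP (log2 fold change -2.34 ± 0.30 (SE), adjusted p = 0.000221), and Flt1 and Flt4, the other VEGF receptors, fell by 2.20 and 2.63 on the log2 scale. Tie1, the orphan partner of TIE2, had 144 and 165 FPKM in HE2 and 37.4 and 31.2 FPKM in HP. Eng, the TGF-beta coreceptor endoglin, had 87.4 and 115 FPKM in HE2 and 12 and 8.47 FPKM in HP. Among the adhesion and junction genes, Icam2 had 42.9 and 80.7 FPKM in HE2 and 1.26 and 1.81 FPKM in HP, and Cldn5 had 11.9 and 34.1 FPKM in HE2 and 0.369 and 0.364 FPKM in HP. Ptprb, the phosphatase that binds VE-cadherin and TIE2, had 29.9 and 40.8 FPKM in HE2 and 0.606 and 0.395 FPKM in HP, so it was near 0 in both HP libraries. Pecam1, which blood cells also carry, fell less, from 154 and 216 to 67.6 and 52.1 FPKM (log2 fold change -1.60 ± 0.24 (SE), adjusted p = 0.000727). Cd34, a marker of both endothelium and progenitors, was the member not called, with 179.5 and 329 FPKM in HE2 and 130.2 and 148 FPKM in HP and an adjusted p of 0.119. In each of the 30 called genes HE2 replicate 2 was above HE2 replicate 1, by a median ratio of 1.68. The same order held for 1138 of the 1418 genes called lower (80.3%) and for 53.4% of all genes tested. Both HE2 libraries were above both HP libraries for the 30, as for all 1418 genes called lower.

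Among the endothelial regulators, Sox7 had 11.2 and 22 FPKM in HE2 and 0.109 and 0.185 FPKM in HP and Sox17 had 4.95 and 5.91 FPKM in HE2 and 0 and 0.0499 FPKM in HP. With Sox18 above, the 3 SoxF genes fell together, by 3.87, 2.65 and 4.63 on the log2 scale. Bcl6b, a transcriptional repressor of endothelium, had 18.4 and 35.7 FPKM in HE2 and 0.0895 and 0.351 FPKM in HP (log2 fold change -4.46 ± 0.29 (SE), adjusted p = 2.49e-06). Erg, an ETS factor of endothelium and stem cells, had 20.9 and 32.9 FPKM in HE2 and 7.98 and 5.27 FPKM in HP (log2 fold change -1.86 ± 0.34 (SE), adjusted p = 0.00226). Fli1, the related ETS factor, had 59.5 and 81.8 FPKM in HE2 and 48.6 and 50.1 FPKM in HP and an adjusted p of 0.12. Klf2 and Klf4, the factors that respond to blood flow, went from 55.9 and 62 to 9.31 and 7.62 FPKM and from 5.39 and 11.3 to 0.524 and 0.45 FPKM. The 3 sets of HP libraries for Sox7, Sox17 and Bcl6b were at or near 0, while those for Fli1 kept most of the HE2 level.

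**Figure D2:**
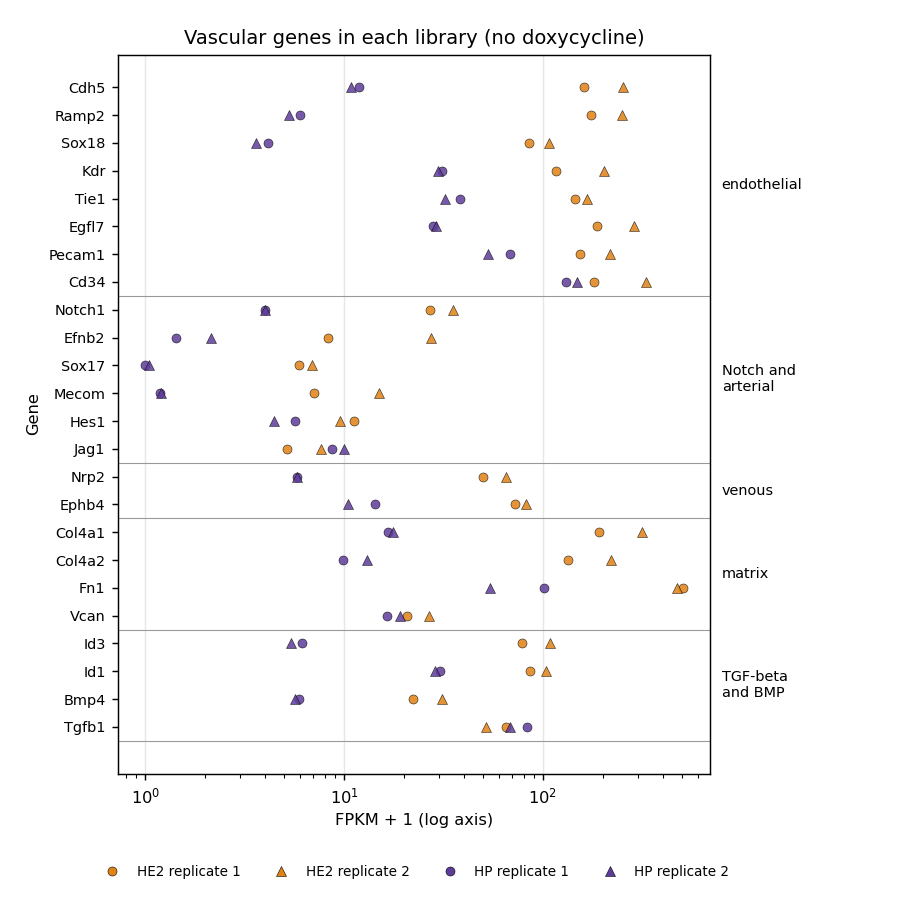
Each row is a gene and each point 1 library, with FPKM + 1 on a logarithmic axis; orange marks NoDox HE2, purple NoDox HP, circles replicate 1 and triangles replicate 2. The purple points lie to the left of the orange points for most of the genes drawn, far apart for Ramp2, Sox18 and Cdh5, while for Vcan they lie close to them and for Jag1 and Tgfb1 to their right.

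Notch and arterial genes fell with the rest of the vascular programme: 15 of 21 tested were called lower and the median was -2.17. Of the receptors, Notch1 had 26.1 and 34.4 FPKM in HE2 and 2.99 and 3 FPKM in HP (log2 fold change -2.96 ± 0.24 (SE), adjusted p = 1.13e-05), and Notch4 had 6.23 and 16.6 FPKM in HE2 and 0.323 and 0.678 FPKM in HP. Of the ligands, Jag2 fell from 7.88 and 13 to 1.71 and 1.16 FPKM, and Dll4, the arterial ligand, had 0.482 and 2.66 FPKM in HE2 and 0 and 0 FPKM in HP and missed the threshold at an adjusted p of 0.0582. Jag1 went the other way without passing, with 4.18 and 6.63 FPKM in HE2 and 7.68 and 8.94 FPKM in HP (adjusted p = 0.134). Of the targets, Nrarp, a feedback inhibitor, fell from 26.7 and 30.3 to 5.95 and 3.02 FPKM, and Hes1 fell from 10.2 and 8.58 to 4.69 and 3.46 FPKM (log2 fold change -1.04 ± 0.28 (SE), adjusted p = 0.0267), a call lost without any 1 of the 4 libraries (0.128 and 0.067 without HE2 replicate 1 and 2, 0.051 and 0.190 without HP replicate 1 and 2). Rbpj, the DNA-binding partner of the receptors, had 11.7 and 14.3 FPKM in HE2 and 13.3 and 12.8 FPKM in HP, with overlapping libraries. Efnb2, the arterial ephrin, had 7.27 and 26.4 FPKM in HE2 and 0.425 and 1.14 FPKM in HP, and its venous receptor Ephb4 fell too, from 71.6 and 81.4 to 13.4 and 9.53 FPKM. The 6 venous genes were all called lower, with a median of -2.76, so artery and vein genes moved in the same direction. Flt4, Aplnr and Emcn of the venous list are also in the endothelial list and were counted there. Nrp2, a coreceptor of veins and lymphatics, had 49.1 and 64.2 FPKM in HE2 and 4.81 and 4.8 FPKM in HP. Mecom, which encodes EVI1, had 6.08 and 13.9 FPKM in HE2 and 0.194 and 0.205 FPKM in HP (log2 fold change -3.10 ± 0.32 (SE), adjusted p = 5.12e-05). The construct holds RUNX1 and EVI1 sequence, and the values do not separate it from the endogenous Runx1 and Mecom genes.

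Basement membrane and matrix genes fell too. Of 21 tested, 15 were called lower, the median was -2.04, and the summed level went from 1730 and 2373 FPKM in HE2 to 394 and 339.6 FPKM in HP. The type IV collagen chains Col4a1 and Col4a2 went from 192 and 313 to 15.6 and 16.7 FPKM and from 133 and 219 to 8.93 and 12 FPKM. Fn1, fibronectin, had 506 and 474 FPKM in HE2 and 99.9 and 53.5 FPKM in HP (log2 fold change -2.73 ± 0.39 (SE), adjusted p = 0.000492), and Hspg2, perlecan, went from 62.3 and 86.1 to 8.3 and 7.15 FPKM. Fbn1, fibrillin, had 31.8 and 34.8 FPKM in HE2 and 1.11 and 1.07 FPKM in HP. Vcan, versican, was among the 6 not called, with 19.7 and 25.9 FPKM in HE2 and 15.4 and 18.1 FPKM in HP. The HP libraries of the collagens were far below the HE2 libraries, and those of Vcan were below both HE2 libraries by much less.

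Signals that act on endothelium moved with it. In the TGF-beta and BMP list 11 of 19 tested genes were called lower, with a median of -1.34. Of the ligands, Bmp4 had 21.3 and 30 FPKM in HE2 and 4.91 and 4.65 FPKM in HP, and Bmp2 and Bmp6 also fell, by 2.29 and 2.94 on the log2 scale. Tgfb1 had 64.3 and 50.5 FPKM in HE2 and 82.6 and 67.4 FPKM in HP and was not called (adjusted p = 0.478). Of the receptors, Acvrl1, the ALK1 receptor of endothelium, had 20.6 and 44.3 FPKM in HE2 and 0.481 and 0.826 FPKM in HP (log2 fold change -4.25 ± 0.31 (SE), adjusted p = 5.91e-06), and Tgfbr2 fell from 19.8 and 38.5 to 9.63 and 11.1 FPKM, a call lost without HE2 replicate 2 (adjusted p 0.106) or HP replicate 1 (0.069). Of the targets, Id3 had 77.3 and 108 FPKM in HE2 and 5.16 and 4.42 FPKM in HP (log2 fold change -4.0 ± 0.21 (SE), adjusted p = 8.57e-07), Id1 fell from 85.1 and 102 to 29.4 and 27.6 FPKM, and the inhibitory Smad6 fell from 53.7 and 40.8 to 15 and 11.4 FPKM. Both HP libraries lay below both HE2 libraries for each of these targets, as for all 1418 genes called lower. In the YAP list 6 of 11 genes were called lower, among them the coactivators Yap1, from 19.3 and 21.5 to 7.14 and 5.06 FPKM, and Wwtr1, which encodes TAZ, from 20.2 and 27.3 to 7.1 and 7.11 FPKM. The count was 3 without HP replicate 2. The matrix-bound targets Ctgf and Cyr61 had log2 fold changes of -1.86 and -1.02 and adjusted p of 0.0553 and 0.0518, so they did not pass.

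Among the blood transcription factors, 6 of 29 tested were called higher and 3 lower, and the list had no common direction (median 0.20, and -0.06 without HE2 replicate 2). Over all genes tested 5.31% were called higher and 10.6% lower, so the 3 lower calls lie near the share of all genes. Without HP replicate 2 the counts were 3 and 1, and without HE2 replicate 1 they were 5 and 1. Gata1, the regulator of red cells and megakaryocytes, had 20.5 and 7.29 FPKM in HE2 and 90.2 and 74.9 FPKM in HP (log2 fold change 2.64 ± 0.46 (SE), adjusted p = 0.00169). Klf1, its partner in red cells, had 3.4 and 2.83 FPKM in HE2 and 35.1 and 29.4 FPKM in HP (log2 fold change 3.01 ± 0.20 (SE), adjusted p = 2.95e-06). Cebpa and Irf8, factors of myeloid cells, were low in all 4 libraries and rose, from 0.243 and 0.513 to 1.72 and 2.24 FPKM and from 0.122 and 0.228 to 0.836 and 2.01 FPKM, Irf8 with a call lost without HE2 replicate 1 (adjusted p 0.055) or HP replicate 2 (0.103). Spi1, which encodes PU.1, had 25.3 and 23.5 FPKM in HE2 and 48.2 and 53.3 FPKM in HP (log2 fold change 1.03 ± 0.27, adjusted p = 0.023). Its call was lost without any 1 of the 4 libraries (adjusted p 0.066 without HE2 replicate 1, 0.113 without HE2 replicate 2, 0.075 without HP replicate 1 and 0.138 without HP replicate 2).

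The 2 GFI1 repressors went opposite ways. Gfi1b, of red cells and megakaryocytes, had 32.5 and 14.7 FPKM in HE2 and 86.2 and 66.6 FPKM in HP (log2 fold change 1.74 ± 0.52 (SE), adjusted p = 0.0382). Gfi1, of stem cells and granulocytes, had 16.8 and 10.7 FPKM in HE2 and 3.15 and 3.03 FPKM in HP (log2 fold change -1.82 ± 0.39 (SE), adjusted p = 0.00724), and in HE1, the first hemogenic population, it had 3.65 and 2.13 FPKM. HE2 was therefore the population with the most Gfi1 of the 3, and HP the one with the most Gfi1b. Gfi1b lost its call without HE2 replicate 2 (adjusted p 0.263), HP replicate 1 (0.177) or HP replicate 2 (0.109), and Gfi1 without HE2 replicate 1 (0.057) or HP replicate 2 (0.053). Gata2, of stem and mast cells, had 18.8 and 15 FPKM in HE2 and 8.88 and 9.2 FPKM in HP (log2 fold change -0.83 ± 0.24 (SE), adjusted p = 0.0316). It lost its call without any 1 of the 4 libraries, with adjusted p of 0.18 without HE2 replicate 1, 0.057 without HE2 replicate 2, 0.129 without HP replicate 1 and 0.125 without HP replicate 2.

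Several regulators that open the blood programme did not pass at this step. Runx1 had 29.4 and 36.8 FPKM in HE2 and 67.4 and 56 FPKM in HP (log2 fold change 0.88 ± 0.57, adjusted p = 0.36), with both HP libraries above both HE2 libraries, and 3.56 and 1.41 FPKM in HE1. Myb, of definitive progenitors, had 56.5 and 34.5 FPKM in HE2 and 58.9 and 49.9 FPKM in HP, which overlap, and 3.96 and 0.568 FPKM in HE1. Tal1 had 82.9 and 50.1 FPKM in HE2 and 118 and 90.2 FPKM in HP (adjusted p = 0.116) and Lmo2, its partner, 41.2 and 57.7 FPKM in HE2 and 80.9 and 74.2 FPKM in HP (adjusted p = 0.0876). Cbfb, the partner of RUNX1, had 30.2 and 37.6 FPKM in HE2 and 28.3 and 25.9 FPKM in HP, and Meis1 had 14.4 and 14.4 FPKM in HE2 and 16.9 and 16.5 FPKM in HP. Some of these depended on the fit: Tal1 passed as higher in 5 of 22 alternatives (adjusted p 0.032 with quantile normalization, 0.032 with median scaling, 0.0083 with a replicate block, 0.044 with a term for the libraries high in Lars2 and 0.032 without HE2 replicate 1), and Runx1 in 1, the 4 libraries alone (0.013). HE1 values are set beside these as a description, since a comparison of HE2 with HE1 would use the same HE2 libraries.

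**Figure D3:**
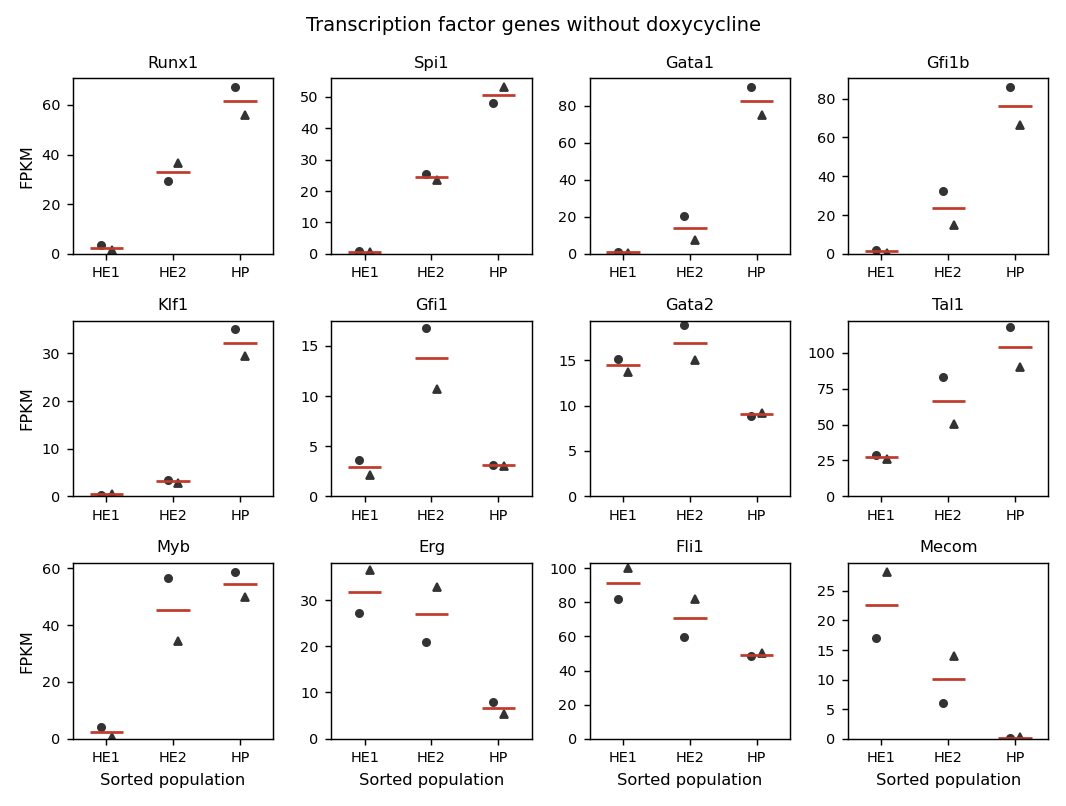
Each panel is a transcription factor gene with FPKM from 0 on the vertical axis and the 3 NoDox populations on the horizontal axis; circles are replicate 1, triangles replicate 2 and bars the mean. Gata1, Gfi1b and Klf1 are highest in HP, Gfi1 is highest in HE2, and Erg and Mecom are lowest in HP, while the HE2 and HP points of Myb overlap.

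Globin genes rose most of the blood groups. Of 10 tested, 9 were called higher with a median of 2.82, and 8 to 10 were called under every alternative run. Globin transcripts made up 0.276 and 0.375% of the summed FPKM in HE2 and 2.06 and 2.72% in HP, after 0.0429 and 0.0436% in HE1. The embryonic beta globin Hbb-bh1, at chr7:103841638-103843162, had 981 and 863 FPKM in HE2 and 7459 and 8221 FPKM in HP (log2 fold change 3.09 ± 0.28 (SE), adjusted p = 2.52e-05). It made up 85.2 and 72.7% of beta globin FPKM in HE2 and 89.2 and 83.6% in HP, so the beta globin of HP was mostly embryonic. Its embryonic neighbour Hbb-y had 151 and 289.6 FPKM in HE2 and 719.6 and 1327 FPKM in HP (log2 fold change 2.22 ± 0.44 (SE), adjusted p = 0.00404), a call lost without HP replicate 2 (adjusted p 0.058). The embryonic alpha globin Hba-x had 298 and 479 FPKM in HE2 and 2097 and 3067 FPKM in HP (log2 fold change 2.74 ± 0.41 (SE), adjusted p = 0.000603). Of the adult genes, Hbb-bs had 14.2 and 25 FPKM in HE2 and 135 and 211 FPKM in HP and Hba-a1 had 84.2 and 122 FPKM in HE2 and 589 and 989 FPKM in HP. Hba-a1 and Hba-a2, and Hbb-bs and Hbb-bt, are near-identical copies, so how their reads were shared is uncertain. Hbq1a, listed at 0 in 3 of the 4 libraries, was the member not called.

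Haem synthesis and iron uptake rose with the globins: 12 of 17 tested genes were called higher, with a median of 1.17. Alas2 had 8.83 and 8.91 FPKM in HE2 and 38.5 and 44.5 FPKM in HP (log2 fold change 2.1 ± 0.22 (SE), adjusted p = 6.23e-05), whereas Alas1, the form of other tissues, had 12.5 and 15.8 FPKM in HE2 and 11.3 and 13.5 FPKM in HP, which overlap. Later enzymes rose by smaller amounts, Cpox from 16 and 13.1 to 47.6 and 42.1 FPKM and Fech, the last step, from 29.8 and 24.5 to 77.6 and 64.2 FPKM. Tfrc, the transferrin receptor, had 29.6 and 29.7 FPKM in HE2 and 109.7 and 114 FPKM in HP (log2 fold change 1.88 ± 0.23 (SE), adjusted p = 0.000183), and the mitochondrial iron importer Slc25a37 rose from 6.35 and 8.71 to 22.9 and 21.5 FPKM. Fth1 and Ftl1, which store iron, had log2 fold changes of -0.61 and -0.30 and did not pass (adjusted p = 0.312 and 0.455).

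Of 15 red cell membrane and surface genes tested, 9 were called higher and 1, Aqp1, lower, with a median of 1.32. Sptb, of the membrane skeleton, rose from 5.26 and 4.25 to 34.8 and 33.8 FPKM, and Epb42 rose from 3.52 and 1.91 to 15.1 and 11.8 FPKM. Epor, the erythropoietin receptor, had 8.49 and 5.23 FPKM in HE2 and 36.5 and 19.2 FPKM in HP (log2 fold change 1.84 ± 0.42 (SE), adjusted p = 0.00934). Its call was lost without HE2 replicate 2 (adjusted p 0.081) or HP replicate 1 (0.099). Slc4a1, the band 3 anion exchanger, overlapped between the populations, with 2.05 and 5.82 FPKM in HE2 and 5.62 and 12.8 FPKM in HP. Aqp1, the water channel of red cells and of endothelium, had 15.1 and 18.2 FPKM in HE2 and 0.151 and 0.242 FPKM in HP (log2 fold change -3.88 ± 0.34 (SE), adjusted p = 1.65e-05) and so followed the endothelial genes. Rhd and Tspo2 were listed at or near 0.

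Platelet and megakaryocyte genes rose in part: 14 of 25 tested were called higher, none lower, and the median was 0.94. Among the receptor subunits for von Willebrand factor, Gp5 had 1.37 and 0.955 FPKM in HE2 and 15.3 and 23 FPKM in HP (log2 fold change 3.20 ± 0.25 (SE), adjusted p = 7.48e-06), Gp1bb had 0.348 and 0.694 FPKM in HE2 and 6.01 and 12.7 FPKM in HP and Gp9 had 0.454 and 0.441 FPKM in HE2 and 4.29 and 4.67 FPKM in HP. Gp1ba, the chain that binds the ligand, had 9.51 and 5.81 FPKM in HE2 and 16.4 and 13.9 FPKM in HP and missed the threshold at 0.0527. Treml1, a granule receptor, went from 0.09 and 0.133 to 3.32 and 7.49 FPKM. Thbs1, thrombospondin, rose from 35 and 58.2 to 117 and 173 FPKM, a call lost without HE2 replicate 1 (adjusted p 0.090) or HP replicate 2 (0.114). Itgb3, the partner chain of CD41, was high in both populations, with 203 and 202 FPKM in HE2 and 304 and 309 FPKM in HP (adjusted p = 0.0583). Without HP replicate 2 the count was 9.

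**Figure D4:**
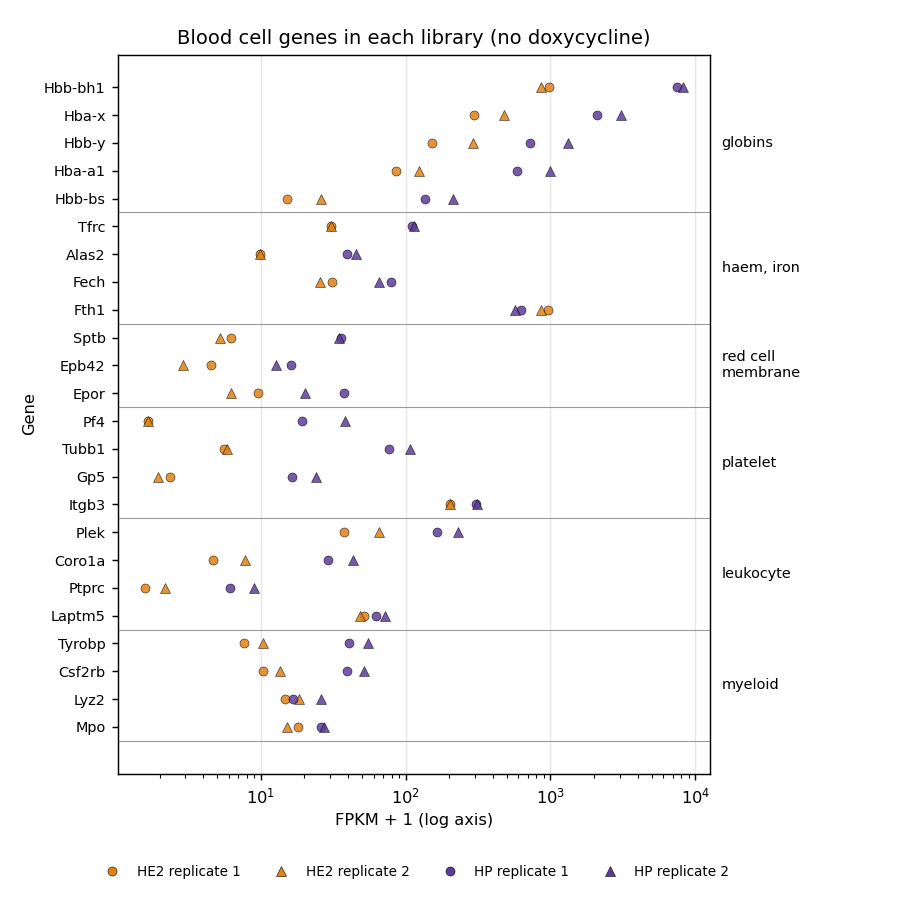
Each row is a gene and each point 1 library, with FPKM + 1 on a logarithmic axis and the same colours and shapes as for the vascular genes. The purple HP points lie to the right of the orange HE2 points for the globins, Tfrc, Alas2, Sptb, Epb42, Pf4, Tubb1 and Gp5, while those of Lyz2 overlap with HE2 and those of Fth1 lie to the left.

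Genes common to blood cells rose too. Of the 29 pan-haematopoietic genes tested, 15 were called higher and none lower, with a median of 1.08, and 10 were called higher without HP replicate 2 and also without HE2 replicate 1. Ptprc, which encodes CD45, had 0.59 and 1.17 FPKM in HE2 and 5.16 and 7.98 FPKM in HP (log2 fold change 2.00 ± 0.27 (SE), adjusted p = 0.000328), and was listed at 0 in both HE1 libraries. Coro1a, an actin regulator of leukocytes, had 3.7 and 6.72 FPKM in HE2 and 27.9 and 42 FPKM in HP (log2 fold change 2.55 ± 0.32 (SE), adjusted p = 0.000178). Plek, pleckstrin, had 36.5 and 64.8 FPKM in HE2 and 163 and 228 FPKM in HP (log2 fold change 1.96 ± 0.26 (SE), adjusted p = 0.000282). Itgb2, the beta chain of leukocyte integrins, rose from 4.48 and 3.45 to 16 and 17.8 FPKM. Laptm5 and Was, already at 23.0 to 51.0 FPKM in HE2, had log2 fold changes of 0.41 and 0.39 and did not pass.

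The called integrin genes went in both directions. Not called were 7 of the 16 tested: Itga2b, Itga6, Itgav, Itgb1, Itgb3, Itgb4 and Itgb5. Itga1, Itga5 and Itga9, which bind collagen, fibronectin and other matrix, fell, by 2.70, 1.73 and 1.46 on the log2 scale, as did Itga2 and Itga3. Itgam and Itgb2, which pair as the MAC-1 receptor of myeloid cells, rose by 1.94 and 1.85, with Itga4 and Itgb7. Itga5 had 34.1 and 44 FPKM in HE2 and 11.7 and 10.4 FPKM in HP and Itgam had 0.316 and 1.01 FPKM in HE2 and 4.05 and 6.73 FPKM in HP. Altogether 4 of 16 tested integrin genes were called higher and 5 lower, with 2 and 3 without HP replicate 1 and 3 and 3 without HE2 replicate 2. The calls of Itga2, Itga3, Itga4 and Itgb7 were each lost without at least 1 of the 4 libraries, HP replicate 1 in each case, with adjusted p of 0.053, 0.082, 0.051 and 0.071.

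Myeloid genes rose from low levels. Of 22 macrophage and monocyte genes tested, 15 were called higher and 1, Mrc1, lower, with a median of 1.3. The summed level of all 28 listed genes was 118 and 135 FPKM in HE2 and 243 and 316 FPKM in HP. Tyrobp, a signal adaptor, had 6.67 and 9.42 FPKM in HE2 and 39.3 and 53.5 FPKM in HP (log2 fold change 2.39 ± 0.28 (SE), adjusted p = 0.000134), and missed the threshold with a pseudocount of 0.1 (0.069). Ncf1 and Ncf4, of the phagocyte oxidase, rose from 2.35 and 3.8 to 14.7 and 21.1 FPKM and from 0.591 and 0.568 to 4.94 and 7.12 FPKM, and Itgam and Cd14 rose by 1.94 and 1.70. Csf1r, the macrophage growth factor receptor, had 0.84 and 1.13 FPKM in HE2 and 3.16 and 5.08 FPKM in HP (log2 fold change 1.35 ± 0.23 (SE), adjusted p = 0.00139), and Adgre1, which encodes F4/80, was listed at 0 in both HE2 libraries and at 0.736 and 1.35 FPKM in HP. C1qa, C1qb and C1qc, which mark mature macrophages, were at 0 in HP replicate 1 and at 0.140 to 0.502 FPKM in HP replicate 2. Mrc1, which endothelium also expresses, fell from 4.9 and 5.78 to 0.133 and 0.134 FPKM. All 15 called rises were higher in HP replicate 2 than in HP replicate 1, and 9 genes were called higher without replicate 2.

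Of the granulocyte and mast cell genes 9 of 24 could be tested, and 4 were called higher: Prtn3, Srgn, Cst7 and Cpa3 (2 without HP replicate 2). Srgn lost its call without HP replicate 2 (adjusted p 0.085), Cpa3 without any 1 of the 4 libraries (0.075 to 0.10) and with a pseudocount of 0.1 (0.182), and Cst7 with a pseudocount of 0.1 (0.053). Prtn3, a granule protease, had 0 and 0.753 FPKM in HE2 and 1.91 and 2.99 FPKM in HP (log2 fold change 1.36 ± 0.26 (SE), adjusted p = 0.00333). Mpo, of the same granules, had 16.9 and 14.1 FPKM in HE2 and 25 and 26.3 FPKM in HP and missed the threshold at 0.114. Elane, Ctsg, S100a8 and S100a9 were at 0 in 3 or all of the 4 libraries. Cd63, a membrane protein of granules and of many other cells, fell, from 93.8 and 109 to 56.1 and 47.9 FPKM (adjusted p = 0.0228), a call lost without any 1 of the 4 libraries (0.051 to 0.158). Among the lymphoid genes Cd3e, Cd3g and Flt3 were at 0 in all 4 libraries. Of the 6 tested, Il2rg, the common cytokine receptor chain, fell from 35.7 and 47.9 to 13.1 and 16.3 FPKM and Ebf1 fell from 2.76 and 2.72 to 0.389 and 0.042 FPKM.

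Stem-cell-associated genes fell more often than they rose: of 16 tested, 8 were called lower and 3 higher, with a median of -0.85. Procr, the protein C receptor, had 23.9 and 37.6 FPKM in HE2 and 3.32 and 2.59 FPKM in HP (log2 fold change -2.98 ± 0.24 (SE), adjusted p = 1.10e-05), Hoxb4 had 6.13 and 7.13 FPKM in HE2 and 0.828 and 0.923 FPKM in HP (log2 fold change -2.02 ± 0.22 (SE), adjusted p = 7.79e-05), and Fgd5, Cd93, Esam and Robo4 fell as well. Procr and these last 4 genes are also known from endothelium, so the list does not separate the 2 cell types. Angpt1, the TIE2 ligand, rose from 0.967 and 1.34 to 5.68 and 8.53 FPKM (log2 fold change 1.89 ± 0.21 (SE), adjusted p = 9.03e-05), and Mllt3 rose from 2.36 and 3.02 to 8.21 and 8.29 FPKM. Hlf and Hoxa9 were at or near 0 in all 4 libraries.

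Cytokine receptors and their signal adaptors split, with 11 of 32 tested called higher and 6 lower. The lower calls were 2 without HE2 replicate 2, 3 without HP replicate 1 or HP replicate 2 and 4 without HE2 replicate 1, and the higher calls 9 to 11. The GM-CSF receptor chains Csf2ra, Csf2rb and Csf2rb2 rose, Csf2rb from 9.29 and 12.6 to 38.1 and 50.5 FPKM (log2 fold change 1.92 ± 0.40 (SE), adjusted p = 0.00584), and without HP replicate 2 the calls of Csf2ra and Csf2rb were lost (adjusted p 0.052 and 0.064). The kinases Btk and Syk rose by 1.68 and 1.61. Il6st, the gp130 chain that carries IL-6 signals, fell from 21.1 and 28.1 to 9.24 and 9.09 FPKM (log2 fold change -1.32 ± 0.21 (SE), adjusted p = 0.000856), and the medium held IL-6 for all groups. The feedback inhibitors Socs3 and Cish fell, Socs3 from 11.3 and 13.2 to 4.84 and 5.55 FPKM. They lost their calls without HE2 replicate 2 (adjusted p 0.073 and 0.158) and without HP replicate 1 (0.069 and 0.128), and Cish also without HE2 replicate 1 (0.063) or HP replicate 2 (0.114). Jak2 and Stat5a, which pass on the signal of EPO and thrombopoietin, had log2 fold changes of 0.50 and 0.36 and did not pass.

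DNA replication and mitosis genes moved by small amounts, most of them upward. Of 41 DNA replication genes tested, 38 had a positive log2 fold change, 4 were called higher and the median was 0.37. Of 34 mitosis genes, 33 were positive, 3 were called higher and the median was 0.34. Over all 13316 genes tested, 5891 were positive, 5.31% were called higher and the median was -0.06. Ccne2, cyclin E2, had 6.9 and 8.97 FPKM in HE2 and 14 and 16.2 FPKM in HP (log2 fold change 0.86 ± 0.22 (SE), adjusted p = 0.0197), a call lost without HE2 replicate 1 (0.138), HP replicate 1 (0.054) or HP replicate 2 (0.142). Hmmr, a spindle protein, had 26.2 and 27 FPKM in HE2 and 50.4 and 47.4 FPKM in HP (log2 fold change 0.85 ± 0.17 (SE), adjusted p = 0.00436). Mcm2, of the replicative helicase, had 91.6 and 69.2 FPKM in HE2 and 107 and 84.9 FPKM in HP, and Mki67, the proliferation marker, had 71.5 and 78.8 FPKM in HE2 and 128 and 109.8 FPKM in HP (adjusted p = 0.0815). The counts depended on the scale and on single libraries: 15 replication and 17 mitosis genes were called after median scaling. Without any 1 of the HE2 and HP libraries compared, fewer replication and fewer mitosis genes were called than with all of them. In the limma fit to all 12 libraries, 3704 of the 13316 genes tested had an unadjusted p below 0.05. Of the D cyclins, Ccnd1 fell from 9.4 and 18.7 to 1.94 and 2.48 FPKM (log2 fold change -2.16 ± 0.31 (SE), adjusted p = 0.000484), while Ccnd3 had 231 and 181 FPKM in HE2 and 222 and 181 FPKM in HP and overlapped. Cdkn1a, the p21 inhibitor, had 55.6 and 61.8 FPKM in HE2 and 28 and 22.1 FPKM in HP and missed the threshold at 0.0819, and Myc had 29.9 and 23.6 FPKM in HE2 and 34 and 25 FPKM in HP. Of 26 genes of the Myc and ribosome list 1, Mycn, was called, lower, and of 20 glycolysis genes 1, Slc16a3, was called, higher. Both calls were lost without HE2 replicate 2 (adjusted p 0.065 for Mycn and 0.189 for Slc16a3), HP replicate 1 (0.082 and 0.119) or HP replicate 2 (0.275 and 0.126), and that of Mycn without HE2 replicate 1 (0.246).

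Interferon and inflammation genes did not share a direction: of 27 tested, 4 were called higher and 5 lower, and the median of 0.25 went to -0.18 without HE2 replicate 1 and to -0.02 without HP replicate 2. Without single libraries the higher calls were 2 to 5 (2 without HE2 replicate 1 or HP replicate 2) and the lower calls 2 to 6 (2 without HE2 replicate 2 or HP replicate 1, 3 without HP replicate 2). The chemokine Ccl3 had 5.36 and 13.6 FPKM in HE2 and 45.7 and 66.7 FPKM in HP (log2 fold change 2.55 ± 0.34 (SE), adjusted p = 0.000311). Nfkbia, the inhibitor of NF-kB, had 23.3 and 33.1 FPKM in HE2 and 5.44 and 5.55 FPKM in HP (log2 fold change -2.15 ± 0.22 (SE), adjusted p = 4.38e-05), and Nfkb1 fell from 23.3 and 28.4 to 11.9 and 10.7 FPKM. Interferon-induced Isg15 had 6.33 and 17.3 FPKM in HE2 and 10.2 and 22.7 FPKM in HP and Ifit1 had 1.22 and 5.92 FPKM in HE2 and 2.99 and 6.86 FPKM in HP, each higher in replicate 2 of both populations and overlapping between them. Of the 17 p53 targets tested 3 were called higher and 2 lower, with Plk2 the largest, from 43.6 and 79.8 to 15.1 and 15.2 FPKM. Over all genes tested 5.31% were called higher and 10.6% lower, so the 2 lower calls lie near the share of all genes. The 3 higher calls were 0 without HP replicate 2 and 1 without each of the other 3 libraries, and the lower calls were 1 without HE2 replicate 2 or HP replicate 2, while Plk2 was called in all of these fits.

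Markers of other cell types that the sort could hold were looked at in the same way. Of 12 mesenchymal and smooth muscle genes tested 1, Des, was called, from 1.04 and 0.726 to 1.99 and 1.99 FPKM (lost without HE2 replicate 2, HP replicate 1 or HP replicate 2, adjusted p 0.180, 0.098 and 0.113), and the summed level of the list was 73.9 and 108 FPKM in HE2 and 56.0 and 78.4 FPKM in HP. Acta2 had 25.9 and 50.7 FPKM in HE2 and 18.7 and 34.5 FPKM in HP, and Col1a2 had 7.67 and 5.67 FPKM in HE2 and 11.4 and 12.6 FPKM in HP. Pdgfra, Dcn and Lum lay between 0 and 0.516 FPKM. Of 9 cardiac and lateral mesoderm genes tested 3 were called lower, with Hand2 from 13.4 and 9.36 to 1.25 and 0.433 FPKM and Gata4 from 11.1 and 7.82 to 1.05 and 0.461 FPKM, and the list summed to 34.3 and 26.8 FPKM in HE2 and 7.76 and 8.50 FPKM in HP. Myl7 was at 0 in all 4 libraries and Myh6 and Nkx2-5 at 0 in both HP libraries. Pou5f1, Nanog and Sox2, of pluripotent cells, were at 0 in both HP libraries and at most 0.102 FPKM in HE2. The part of these cells in the vascular and blood changes was not tested.

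**Figure D5:**
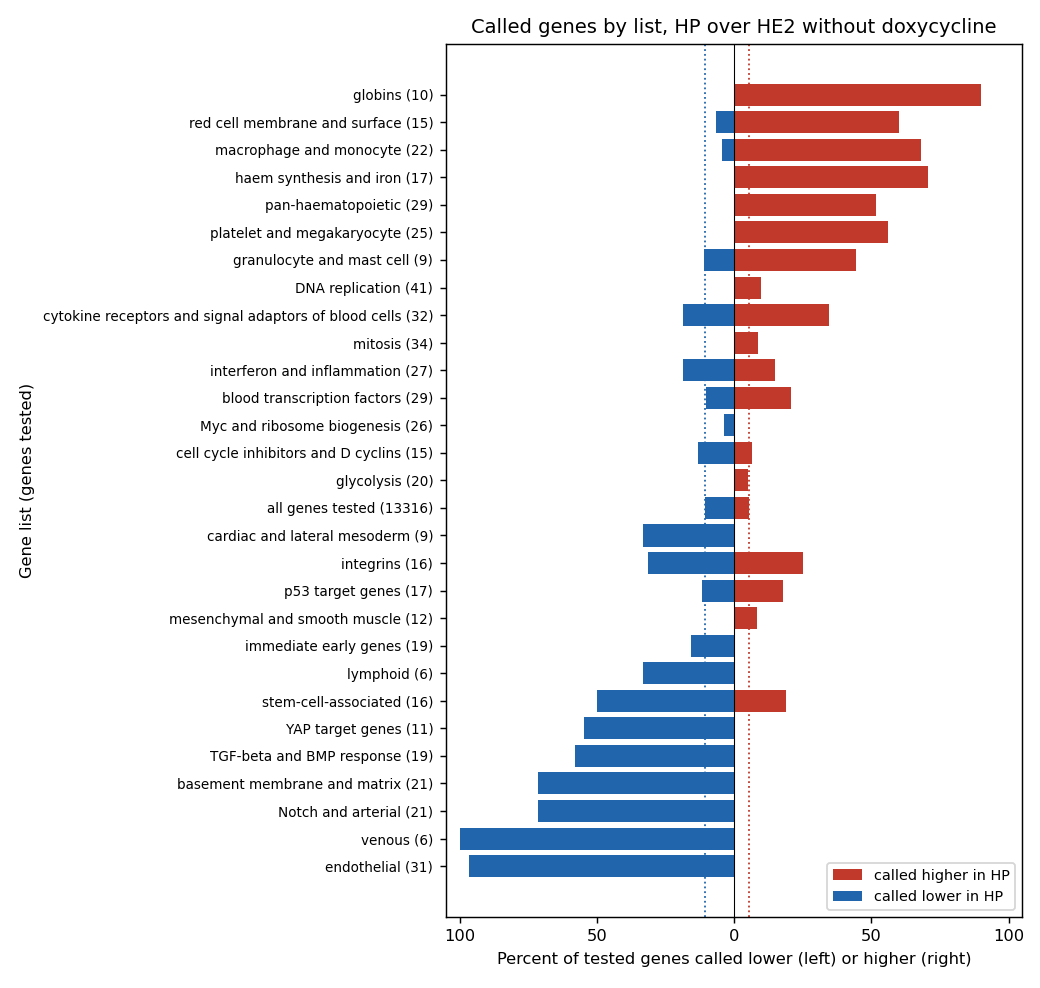
Bars give the percent of each list's tested genes called lower (blue, to the left) or higher (red, to the right) in HP, with the number tested in brackets and the lists ordered by median log2 fold change. Dotted lines mark the 10.6% lower and 5.31% higher of all 13316 genes. Endothelial and venous genes reach furthest to the left at the bottom, 30 of 31 and 6 of 6, and globins furthest to the right at the top, 9 of 10. The endothelial and venous lists share Flt4, Aplnr and Emcn.

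The same step in cells given doxycycline gave 2251 called genes, 16.9% of those tested, with 794 (5.96%) higher and 1457 (10.9%) lower. The steps share no library. In both, 1425 genes were called in the same direction, 67.1% of the calls without and 63.3% of those with doxycycline, and 1 gene was called in opposite directions. The endothelial list gave 30 of 31 lower in either step, with medians of -3.42 without and -3.01 with doxycycline, and the globins 9 of 10 higher, with medians of 2.82 and 2.49. Pf4 rose by 4.02 without and by 4.62 with doxycycline, and Cdh5 had log2 fold changes of -4.16 and -2.76 (adjusted p of the difference 0.916 and 0.413). Ptprc and Coro1a had 2.00 and 2.55 without and 0.16 and 0.27 with doxycycline, and the difference did not pass either (adjusted p 0.296 and 0.28). Runx1 had 0.88 and 0.16. DNA replication genes had medians of 0.37 and 0.67, with 4 and 17 called higher. The difference between the steps was called for 2 of the 13316 genes (0.015%), with 875 at an unadjusted p below 0.05, so a count that differs between the steps is not shown to differ by this test.

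Of the 2 genes with a called difference, Ctsh encodes a lysosomal cysteine protease and lies at chr9:90054267-90076095. Without doxycycline it had 0.252 and 1.25 FPKM in HE2 and 0 and 0.133 FPKM in HP, and with doxycycline 36.2 and 32.2 FPKM in HE2 and 0.745 and 0.921 FPKM in HP. It fell by 4.26 on the log2 scale with doxycycline and had -0.66 without, where it was already low in HE2. The difference was -3.60 ± 0.44 (adjusted p = 0.0231). The call was lost without either NoDox HP library (adjusted p 0.170 without replicate 1 and 0.180 without replicate 2), without NoDox HE2 replicate 1 (0.067), without either NoDox HE1 library (0.060 each), without PlusDox HE2 replicate 2 (0.068) and without either PlusDox HP library (0.112 and 0.080). It was also lost when low genes were kept in (0.126), with a pseudocount of 0.1 (0.648) and with a term for the libraries high in Lars2 (0.120). Its size was -3.18 to -4.03 over the fits without 1 library and -3.03 with a pseudocount of 0.1. The other gene is a predicted non-coding RNA and is described at the end.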

How the data were processed

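Total RNA of 12 libraries was sequenced (2 biological replicates in each of 6 groups, stranded total RNA, paired-end, per the labels' protocols). The submitters' processing notes name Trimmomatic 0.32, HISAT2 2.1.0, StringTie 1.3.3 and the build mm10. The FPKM values were made by the authors, whose notes name these tools without their roles, and deposited as 1 value per gene name, and the files have no header. The unit was inferred from the tool and from sums that differ between libraries. Repeated names (2 to 4 per library) were added, which left 35976 names. Depth in reads is unknown, so no count model was used.

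limma 3.58.1 (R 4.3.3) was fitted to log2(FPKM + 1) of the 12 libraries, with 1 mean for each of 6 groups and a variance trend on intensity (6 residual and 5.83 prior degrees of freedom). Genes with at least 1 FPKM in at least 2 libraries were tested, and P-values were two-sided with Benjamini-Hochberg adjustment over 13316 genes. In data simulated for the comparison without doxycycline on 13316 genes, 200 genes with a mean of at least 5 FPKM were changed. The fit recovered 39% of 2-fold and 89% of 4-fold changes, with 0 of wrong sign and 6 false calls. Changes in genes below that mean were not simulated. The 200 are far fewer than the 2125 genes called in the data, so these rates need not hold there. Named genes were the 20 largest rises and falls with a group mean of at least 5 FPKM and libraries that do not overlap, up to 5 called members per direction of 31 lists, and 14 regulators and surface genes. Further members were named after their values were seen, and some members are not reported here. The comparison and the lists were chosen with earlier results of these data known. Promoters and gene coordinates came from RefSeq tables (GRCm38.p6), which hold 32501 of the names. Alternatives covered pseudocount, filter, scaling, trend, a block, a term for the libraries high in Lars2, smaller fits and each library left out. Python 3.11.15 with pandas 2.3.3 and matplotlib 3.10.9 made the tables and plots.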

Additional observations from a re-analysis of the deposited data

Results flagged for a closer look

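The step differed with doxycycline for 2 genes, by a test of the difference itself (limma, adjusted over 13316 genes). For Ctsh the log2 fold change with doxycycline minus that without was -3.60 ± 0.44 (SE, adjusted p = 0.0231). It had 36.2 and 32.2 FPKM in HE2 with doxycycline, and 0.252 and 1.25 FPKM in HE2 and 0 and 0.133 FPKM in HP without. For Gm34865, a predicted non-coding RNA gene at chr3:90124644-90127116, the difference was 2.84 ± 0.35 (adjusted p = 0.0231). It had 3.41 and 5.4 FPKM in HE2 and 0 and 0 FPKM in HP without doxycycline and 3.4 and 3.51 FPKM in HE2 and 6.22 and 3.96 FPKM in HP with it. It lies outside the rule for named genes and was singled out after its values were seen. Both calls were lost without either NoDox HP library (adjusted p 0.170 and 0.180) and with a term for the libraries high in Lars2 (0.120), and with no filter on low values (0.126 and 0.116). That of Ctsh was also lost with a pseudocount of 0.1 (0.648) and in the further fits without 1 library listed for it above. That of Gm34865 was also lost without either NoDox HE1 library (0.060 each), NoDox HE2 replicate 2 (0.092), PlusDox HE2 replicate 2 (0.068) or PlusDox HP replicate 1 (0.112).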

How the results depend on the processing

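Of 159 called genes, those named by rule together with Gm34865, 115 were called under each of the 22 alternatives that tested them. The other 44 lost the call under at least 1, and 0 were called with the other sign. Myb, not called, ran from -0.058 to 0.638 without 1 library, with the negative value without HE2 replicate 2. Of the 6 named genes not called, Tal1 passed under 5 alternatives, Kit under 4, and Runx1 and Ctsh under 1 each. Losses were most frequent without HP replicate 2 (35 genes), HP replicate 1 (31), HE2 replicate 2 (31) and with no filter (21). For the step without doxycycline, genes called higher went from 707 to 1328 with quantile normalization and 1408 with median scaling (47.9 and 48.9% of calls, beside 33.3%), to 41.7% with a term for the libraries high in Lars2, and to 1106 with a replicate block. Without each library in turn, 1184 to 2195 genes were called, 401 to 732 higher and 783 to 1463 lower. With doxycycline, calls went from 2251 to 3394 with quantile normalization and 3388 with the replicate block, and those higher to 1690, 1568 (median scaling), 1474 (block) and 1270 (library term). Without each library in turn they ran from 1307 to 2331, with 387 to 851 higher and 824 to 1490 lower.

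The difference between the steps was called for 2 genes, 1 with a pseudocount of 0.1, 6 with no filter, 5 with the replicate block, 0 with the library term (1223 at an unadjusted p below 0.05 in limma), and 0 to 5 without 1 library (488 to 1283 at that unadjusted p). The labels give groups the same replicate numbers and do not say that these mark a shared culture. Differences between replicates correlated at 0.307 across genes between HE2 and HP, and the block lost none of the named calls. Of the 4 libraries compared, HP replicate 2 had the lowest relative depth (0.712 of the median library), which limits values near 0 FPKM there most.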

Other observations

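Some gene families were looked at after their members had been seen among the called genes, so they are given as values with no test of the family.

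Imprinted genes, expressed from 1 parental copy and rich in regulators of fetal growth, were lower in HP: of 25 tested, 16 were called lower and 0 higher, with a median log2 fold change of -0.79 beside -0.06 over all genes. Igf2, the fetal growth factor, had 338 and 286 FPKM in HE2 and 32.8 and 34.5 FPKM in HP (log2 fold change -3.17 ± 0.21), and H19, the non-coding RNA beside it, had 175 and 139.8 FPKM in HE2 and 25.3 and 13.6 FPKM in HP. Mest, one of the most abundant transcripts of HE2, had 1001 and 1686 FPKM in HE2 and 159 and 149 FPKM in HP. Peg3 had 103 and 226 FPKM in HE2 and 13.7 and 19.3 FPKM in HP, and Meg3 and Rian, 2 non-coding RNAs of a shared imprinted cluster, had 13.6 and 21.2 FPKM in HE2 and 1.28 and 1.18 FPKM in HP and 20.6 and 36.8 FPKM in HE2 and 2.96 and 3.37 FPKM in HP. Gnas had 464 and 460.3 FPKM in HE2 and 416 and 383 FPKM in HP and was not called. In HE1 the means of Igf2, Mest and Meg3 were 611, 2742 and 60.3 FPKM.

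Of 15 tested Hox genes, 12 were called lower and 0 higher, with a median of -1.19. Hoxb2 had 12.3 and 8.36 FPKM in HE2 and 0.552 and 0 FPKM in HP, Hoxb4 had 6.13 and 7.13 FPKM in HE2 and 0.828 and 0.923 FPKM in HP and Hoxb5 had 5.41 and 4.49 FPKM in HE2 and 0 and 0 FPKM in HP; these 3 were below 1 FPKM in both HP libraries. Hoxa9 was listed at 0 in all 4 libraries.

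Of 14 tubulin genes, Tubb1, Tuba4a and Tuba8 rose and Tubb6 and Tubg2 fell. The call of Tubb6 was lost without any 1 of the 4 libraries (adjusted p 0.071 to 0.120) and that of Tubg2 without HP replicate 1 (0.087). Tuba4a had 4.7 and 3.34 FPKM in HE2 and 40.5 and 47.9 FPKM in HP and Tuba8 had 1.27 and 2.19 FPKM in HE2 and 10.4 and 12.9 FPKM in HP, while the abundant Tubb5 had 760.1 and 647 FPKM in HE2 and 741 and 610.4 FPKM in HP. Of 4 aquaporin genes tested Aqp8 rose, with 4.26 and 1.54 FPKM in HE2 and 14.7 and 11.8 FPKM in HP, and Aqp1 fell. Of 9 CC chemokine ligands 5 were called higher, among them Ccl9, with 4.64 and 10.4 FPKM in HE2 and 44.5 and 74.5 FPKM in HP, and Ccl6, with 4.67 and 9.5 FPKM in HE2 and 31.4 and 49.7 FPKM in HP, while Ccl2 had 1.02 and 6.45 FPKM in HE2 and 1.38 and 5.79 FPKM in HP and was not called.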
